A study of Crocodylus porosus with 60 samples.

Results

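The 34 rows described here are N-numbered microRNA (miRNA) rows of the saltwater crocodile, Crocodylus porosus, that were detected in every small RNA library examined. They were chosen from the 509 N-numbered rows among 653 distinct rows in all, as those with at least 3 RPM (reads scaled to 1 common total) in each of 15 libraries and a highest tissue mean under 2 times the second highest, leaving out 7 rows by name. The tissue levels therefore chose the members, and every tissue level below is a description with no test. The rows were broadly detected, but their levels were not even over tissues. The highest tissue mean of a row was between 2.69 and 126 times its lowest, with a median of 7.18, and 11 of the 34 rows spanned at least 10-fold.

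The study sequenced small RNA from flash-frozen tissues of crocodile hatchlings and compared animals that had stayed small, called runts, with hatchlings of normal size. Per the labels, runts were 386.2 ± 23.6 mm (SD) and 359 days old, those of normal size measured 740.2 ± 73.5 mm (SD) at 373 days of age, both were raised under the same conditions, and no treatment was given. Testis had 2 normal and 2 runt libraries, heart and brain had 1 library of each size class, and 1 library each, with no size class given, came from spleen, liver, stomach, small intestine, cloaca, tongue and jaw skin. The size class comes from the column headers alone, and nothing says that libraries of one size class came from separate animals, so p-values measure the spread between libraries, which may be technical. Titles of the samples name the cloaca, but the header of the column used for it names the cloacal gland.

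An miRNA is a short RNA cut from a hairpin precursor, and it guides an Argonaute protein to messenger RNAs that pair with its seed near the 5′ end, which lowers their translation or stability. Families shared among vertebrates, such as let-7 or miR-26, keep their names across species, whereas the deposited table gives an N and a number to rows outside those families. Such rows are often recent in origin, and the series' title names transposable elements as a source of crocodile miRNAs. No function is attached to any N-numbered row in the sources used here, their sequences and positions were not analysed here, and whether each row is a true miRNA was not checked.

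Depth, read from the smallest step between low values, ranged from 539947 reads in jaw skin to 4761900 in normal brain. The 510 values of the 34 rows corresponded to between 3.0 and 11115 reads, and 42 of them were under 10 reads. Intervals given below are exact 95% Poisson intervals on those reads and cover counting error only. The tissue labels were set against family-named marker rows. The liver marker miR-122 stood at 208151 RPM in liver, the 7 striated muscle rows summed to 63266 RPM in heart, the 2 gut epithelium rows to 73470 RPM in small intestine, and the 4 white blood cell rows to 40374 RPM in spleen, each the highest sum of its list among the 10 tissues. One testis library stood apart in the level of miR-N444, an N-numbered row left out by name. In the second normal testis library this row took 60.0% of the RPM total, against 26.5% to 34.4% in the other testis libraries. A larger share leaves less of the RPM total for every other row. The share of miR-N444 also differed in brain, at 23.0% in normal and 5.35% in runt, and in heart, at 12.7% in normal and 4.55% in runt. Its part in the runt ratios of the members was not tested.

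Together the 34 rows made up 0.888% of the RPM listed in the table, against 55.7% for the 62 of 144 family-named rows that pass the same 2 thresholds. The sets were not chosen fully alike, since no family-named row was left out by name. Among the N-numbered rows left out by name, miR-N1 (mean of 32496 RPM over tissues) and miR-N440 (1193 RPM) pass both thresholds. miR-N449 alone held 53.6% of the summed mean of the 34 rows. It was the third most abundant N-numbered row and ranked 35 among all rows, while the second most abundant member, miR-N402, ranked 79 and the last, miR-N73, ranked 200. Means over the 10 tissues were at least 100 RPM for 10 rows, between 20 and 100 RPM for 18 rows and under 20 RPM for 6 rows. A level of 3 RPM in every library was reached by 42 of 509 N-numbered rows (8.25%) and by 95 of 144 family-named rows (66.0%).

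**Figure D1:**
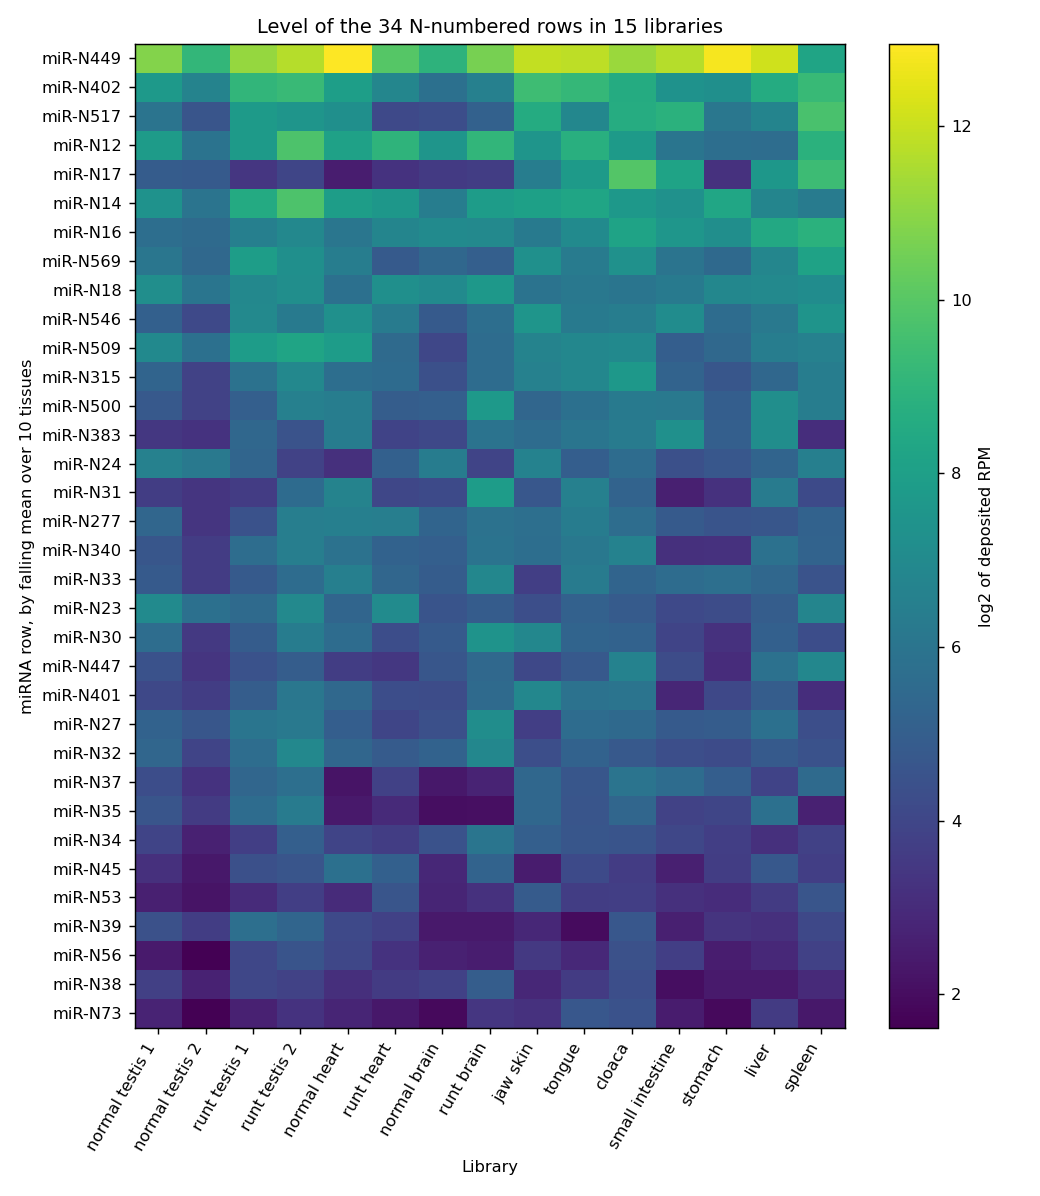
Level of the 34 N-numbered rows (one per line, by falling mean over 10 tissues) in the 15 libraries, as colour on a log2 scale of deposited RPM. miR-N449 is the brightest line except in spleen, where it stood at 297 RPM and several other rows were brighter, and the column of the second normal testis library is dark for most rows.

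The rows did not share a leading tissue. Spleen, jaw skin and brain each held the highest tissue mean of 6 rows, cloaca of 5, testis of 3, tongue, liver and heart of 2 each, and small intestine and stomach of 1 each. The lowest mean lay in stomach for 8 rows, in small intestine for 7 and in brain for 6. This order depends on how libraries are scaled. With libraries scaled by a trimmed mean of log ratios, 24 of the 34 rows kept their leading tissue, spleen led 14 rows in place of 6, and jaw skin and cloaca led 2 each. The highest and the second highest tissue could not be told apart for 27 of the 34 rows, since their counting intervals or the ranges of their libraries overlapped. The 7 rows whose top tissues lay apart were miR-N449, miR-N517, miR-N17, miR-N16, miR-N569, miR-N315 and miR-N401, all of them with 1 library in both tissues, so the separation covers counting error only. The highest and the lowest tissue lay apart for 29 rows.

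miR-N449 was the most abundant of the rows, with a mean of 3232 RPM over 10 tissues (SD 1928 over tissues), and was highest in stomach. Its level was 7019 RPM in stomach, 4484 in liver, 3789.7 in jaw skin, 3588 in tongue, 3240.4 in small intestine, 2422 in cloaca and 297 in spleen. It stood at 1864 and 556 RPM in normal testis, 2278 and 3341 in runt testis, 7889 in normal and 1004 in runt heart, and 496 in normal and 1552 in runt brain. Spleen was the lowest library of all and normal heart the highest, and the heart libraries differed 7.86-fold, so the heart mean of 4446 RPM stands for neither library. The stomach interval of 6889 to 7151 RPM did not reach that of liver, 4325 to 4648 RPM.

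Spleen held the highest mean of 6 rows and is the tissue in which miR-N449 was lowest. miR-N517 stood at 832 RPM in spleen, 459.7 in small intestine, 391 in cloaca, 389 in jaw skin, 116 in tongue, 106 in liver and 69.5 in stomach. In normal testis it was at 62.0 and 24.5 RPM, in runt testis at 222 and 183, in normal and runt heart at 154 and 17.2, and in normal and runt brain at 19.8 and 34.6. Runt heart was its lowest library, followed by normal brain, and the spleen interval of 798 to 867 RPM lay above that of small intestine, 418 to 504 RPM. miR-N12 stood at 459.5 RPM in spleen, 440.4 in tongue, 223 in cloaca, 181 in jaw skin, 63.9 in small intestine, 52.4 in stomach and 50.8 in liver. The same row was at 229 and 60.6 RPM in normal testis, 218 and 890.5 in runt testis, 271 and 499 in normal and runt heart, and 183 and 537 in normal and runt brain. Its highest single library was thus runt testis and not spleen, and spleen and tongue overlapped in their intervals.

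miR-N16 and miR-N569 had a narrower range over tissues. Both had their highest tissue mean in spleen, apart from the second highest tissue beyond counting error. miR-N16 was at 465 RPM in spleen, 353 in liver, 294 in cloaca, 189.8 in small intestine, 150.3 in stomach, 133 in tongue and 77.8 in jaw skin. Its libraries of normal testis stood at 51.7 and 46.9 RPM, of runt testis at 90.5 and 121, of normal and runt heart at 67.8 and 110.5, and of normal and runt brain at 129.6 and 125. The brain libraries of this row were close to each other. No testis library reached the brain level, but the second runt testis interval of 102 to 143 RPM overlapped both brain intervals. miR-N569 was at 283 RPM in spleen, 161 in cloaca, 156 in jaw skin, 114 in liver, 79.7 in tongue, 62.9 in small intestine and 44.9 in stomach. In normal testis its level was 66.2 and 43.8 RPM, in runt testis 246 and 151, in normal and runt heart 85.0 and 28.0, and in normal and runt brain 42.0 and 33.2. The first runt testis library of miR-N569 therefore came near the spleen level, and their intervals overlapped, at 217 to 276 and 263 to 304 RPM. The runt heart library was the lowest.

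The other spleen-led rows were miR-N447 and miR-N23. miR-N447 had the third largest coefficient of variation (SD over mean of the 10 tissue means, CV) of the 34 rows, 0.919. It was at 116 RPM in spleen, 98.5 in cloaca, 56.8 in liver, 27.8 in tongue, 19.3 in small intestine, 16.7 in jaw skin and 8.21 in stomach. Its level was 22.3 and 10.2 RPM in normal testis, 22.4 and 30.6 in runt testis, 12.6 and 10.8 in normal and runt heart, and 25.2 and 43.1 in normal and runt brain. Spleen and cloaca overlapped in their intervals and stood above all other libraries. miR-N23 had 109.8 RPM in spleen and a testis mean of 88.9 RPM, and its runt heart library stood higher than spleen, at 137 RPM. The 4 white blood cell marker rows, miR-146a-5p, miR-150, miR-155-5p and miR-223, summed to 40374 RPM in spleen, 9823 in cloaca, 6197 in liver and between 874 and 3977 in the other tissues. Spleen was also highest, with heart next, for the endothelial marker miR-126 (10510 and 7166 RPM), the red blood cell row (230 and 20.4 RPM) and the broadly expressed families (298578 and 266171 RPM). The remaining marker lists were highest in other tissues. The part of any marker list in the spleen levels was not tested. In whole tissue, more cells of a type and more RNA per cell cannot be told apart.

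**Figure D2:**
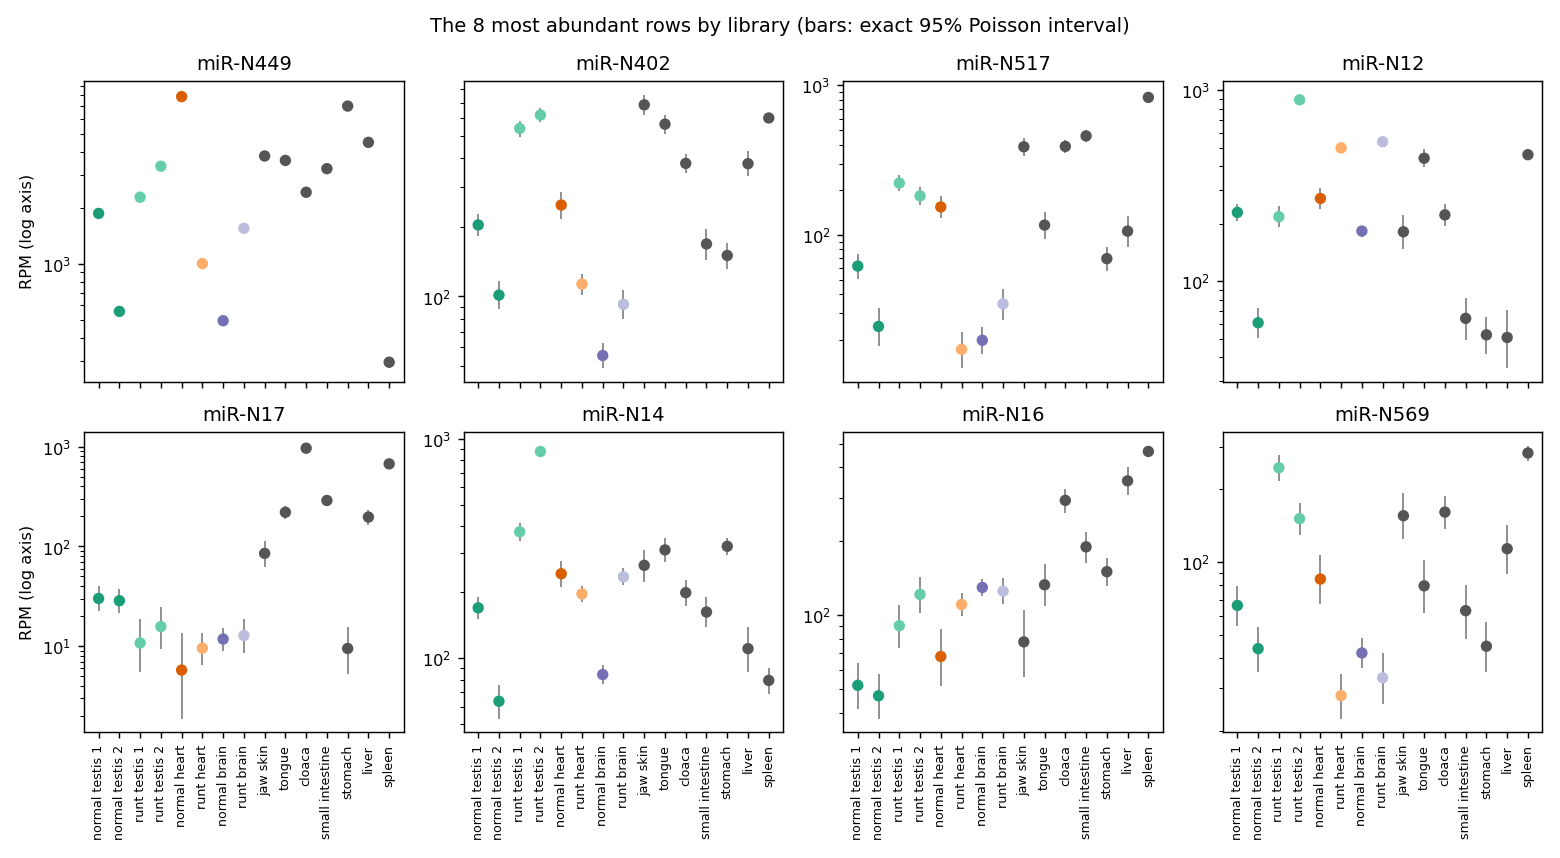
Level in deposited RPM (log axis, one scale per panel) of the 8 most abundant rows in each library, with exact 95% Poisson intervals as bars. Testis is drawn in green, heart in orange and brain in purple, with the lighter shade for runts, and the 7 other tissues in grey, and the libraries of one tissue lie far apart for several rows, as in heart for miR-N449 and in testis for miR-N12 and miR-N14.

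Cloaca held the highest level of 5 rows, led by miR-N17, which had the widest range of the 34 rows. miR-N17 was at 968 RPM in cloaca, 673 in spleen, 289 in small intestine, 220.2 in tongue, 197 in liver, 85.2 in jaw skin and 9.47 in stomach. In normal testis it stood at 30.1 and 28.5 RPM, in runt testis at 10.8 and 15.7, in normal and runt heart at 5.75 and 9.55, and in normal and runt brain at 11.8 and 12.8. Every testis, heart, brain and stomach library was thus under the lowest of the other 6 tissues, jaw skin, and the cloaca interval of 909 to 1029 RPM lay above that of spleen, 643 to 705 RPM. Its CV of 1.31 was the largest of the 34 rows, followed by 0.981 for miR-N517. miR-N315 followed with 202 RPM in cloaca and 118 in tongue, and it was lowest in stomach at 25.3 RPM. miR-N340 was at 98.5 RPM in cloaca and 9.13 in small intestine, and miR-N37 was at 62.5 RPM in cloaca with a brain mean of 5.84 RPM.

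The fifth cloaca-led row, miR-N56, was one of the 3 rows with the most even levels, with a CV of 0.434. It was at 21.8 RPM in cloaca, 14.1 in spleen, 13.2 in small intestine, 11.1 in jaw skin, 7.59 in tongue, 7.47 in liver and 5.68 in stomach. Its testis libraries were at 5.41 and 3.06 RPM for normal and 16.1 and 23.6 RPM for runt, its heart libraries at 16.1 and 9.55 RPM, and its brain libraries at 6.31 and 5.69 RPM. These levels are low, and the highest of them was a runt testis library and not cloaca.

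Jaw skin held the highest mean of 6 rows. miR-N402 was at 685 RPM in jaw skin, 601 in spleen, 564 in tongue, 381 in cloaca, 379.6 in liver, 169 in small intestine and 151 in stomach. It stood at 205 and 101 RPM in normal testis, 540.5 and 619 in runt testis, 251 and 113 in normal and runt heart, and 55.3 and 92.5 in normal and runt brain. Brain was the lowest tissue, and jaw skin and spleen overlapped in their intervals, 617 to 759 and 572 to 631 RPM. miR-N401 was the jaw skin row with the clearest lead, at 117 RPM against 63.4 RPM in cloaca. miR-N546 was at 183 RPM in jaw skin and 180.5 RPM in spleen, and miR-N24 at 99.4 and 91.9 RPM in the same tissues. miR-N30 was at 117 RPM in jaw skin and 9.47 in stomach, and miR-N53, a low row, was at 29.6 RPM in jaw skin with a testis mean of 7.95 RPM. Jaw skin is the shallowest library, so 1 read there is worth more RPM than in any other.

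Brain held the highest mean of 6 rows, 1 of them the most even row of all. miR-N18 had a CV of 0.333 and a highest tissue mean 2.69 times its lowest, the smallest of the 34 rows. It was at 138 RPM in spleen, 124 in liver, 117 in stomach, 75.1 in small intestine, 72.1 in tongue, 65.3 in cloaca and 61.1 in jaw skin. Its level was 129.5 RPM in normal and 199 in runt brain, 55.2 and 152 in normal and runt heart, 146 and 64.7 in normal testis, and 119 and 150.3 in runt testis. The testis libraries and the heart libraries of this row each spanned much of the range seen over all tissues. The lead of brain rested on the runt library in all 6 rows: without it brain led 0 of the 34 rows, and without the normal brain library it led 10. miR-N31 was at 236 RPM in runt and 17.7 in normal brain, miR-N27 at 146 and 20.6, miR-N32 at 116 and 36.2, miR-N34 at 64.5 and 22.2, and miR-N38 at 31.0 and 13.9. In all 6 rows the runt brain library was the higher of the pair.

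Testis held the highest mean of 3 rows, and of 1 row without the second runt library. miR-N14, with a CV of 0.436 the third most even row, was at 169.7 and 63.7 RPM in normal testis and 376 and 874 in runt testis. In normal and runt heart it was at 242 and 196 RPM, and in normal and runt brain at 84.3 and 235 RPM. Its single libraries stood at 323 RPM in stomach, 311 in tongue, 265 in jaw skin, 199 in cloaca, 162 in small intestine, 111 in liver and 79.2 in spleen. The 4 testis libraries spanned more than the 10 tissue means did, since the lowest of all 15 libraries was a normal testis and the highest a runt testis. miR-N509 had testis libraries at 128 and 56.0 RPM for normal and 232 and 304 for runt, and was lowest in the normal brain library at 16.2 RPM. miR-N39 had 21.7 and 12.7 RPM in normal and 54.7 and 39.3 in runt testis, and was lowest in tongue at 3.80 RPM.

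The remaining tissues each led 1 or 2 rows. Liver led miR-N500, at 148 RPM against 32.2 in stomach, and miR-N35, at 56.0 RPM against a brain mean of 4.14 RPM. Heart led miR-N277, at 89.7 and 88.8 RPM in its libraries, and miR-N45, at 55.2 and 34.1 RPM. The heart libraries of miR-N277 were the closest heart pair of the 34 rows, and its lowest tissue, stomach, was at 23.4 RPM. Tongue led miR-N33, at 79.7 RPM against 13.0 in jaw skin, and miR-N73, at 25.9 RPM against 3.79 in stomach. Small intestine led miR-N383, at 156 RPM, which stood at 142 RPM in liver and was lowest in spleen at 8.56 RPM.

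Libraries of one tissue differed about as much as tissues did for many rows. Over the 4 testis libraries the highest value was 5.47 times the lowest at the median of the 34 rows, with a range of 2.32 to 14.7. The pair of brain libraries differed 2.31-fold and the pair of heart libraries 2.00-fold at the median. For 10 rows the spread among testis libraries was at least as large as the spread over the 10 tissue means, and for 12 rows this held in at least 1 of the 3 tissues. In deposited RPM the second normal testis library was the lowest testis library for 31 of the 34 rows, and the second runt testis library was the highest for 25. The same counts over all rows were not made. The scaling factors of the testis fit, taken over all rows, were also lowest and highest in these libraries, at 0.525 and 1.54. The spread among testis libraries thus includes shifts of whole libraries and both size classes, and is not particular to the 34 rows.

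Evenness over tissues was close to that of the family-named rows chosen by the same thresholds, which is a description only. The median CV was 0.595 for the 34 rows, 0.641 for the 62 family-named rows and 1.33 for the other 475 N-numbered rows, most of which were listed at 0 in at least 1 library. The thresholds require a level in every library and limit the lead of the highest tissue. Both the 34 and the 62 rows were chosen by them, the 34 with 7 rows also left out by name. The closeness of these sets and the gap to the other N-numbered rows thus follow in part from the choice of rows. Neither is a finding. The median level was 47.7 RPM for the 34 rows and 1383 RPM for the 62 family-named rows. The 8 most abundant of those 62 were miR-148-5p at 55710 RPM, miR-26a-5p at 47879 RPM, miR-30a-5p at 47188 RPM, miR-425-5p at 25343 RPM, miR-145 at 24203 RPM, miR-205a at 21694 RPM, miR-92-1-5p at 19151 RPM and miR-125b-5p at 14787 RPM, as means over 10 tissues. Even miR-N449 was thus below these 8, and passing both thresholds did not make a row even, since miR-205a ranged 23997-fold over tissues, from jaw skin to spleen.

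**Figure D3:**
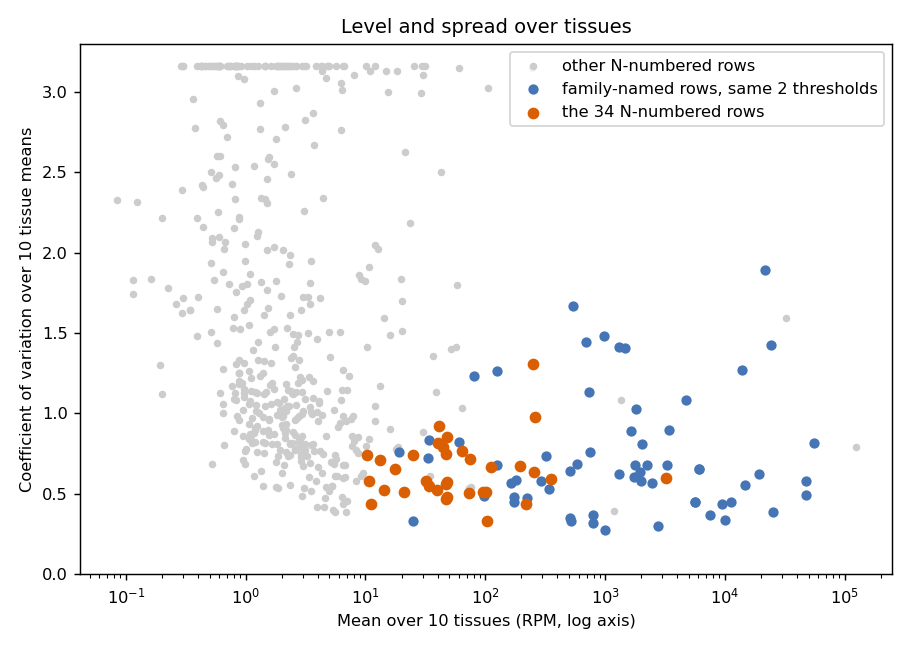
Coefficient of variation over the 10 tissue means against the mean level in RPM (log axis), for the 34 rows (orange), the 62 family-named rows that pass the same thresholds (blue) and the 475 other N-numbered rows (grey). Most of the 34 rows lie at a CV under 1, like most of the family-named rows but at lower levels, and miR-N17 is the orange point above 1.

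miR-N449 was the largest single part of the summed level of the 34 rows in every library but spleen. The sum was 8450 RPM in stomach, 7044 in liver, 6898 in jaw skin, 6721 in tongue, 6637 ± 5241 (SD, n = 2) in heart, 6490 in cloaca, 5494 in small intestine, 4935 in spleen, 4589 ± 2783 (SD, n = 4) in testis and 3076 ± 1953 (SD, n = 2) in brain. Without miR-N449 the order turned over: the other 33 rows summed to 4638 RPM in spleen, the highest, and to 1431 RPM in stomach, the lowest. In heart the rows other than miR-N449 summed to 2190 ± 372 RPM (SD, n = 2), so the difference between the heart libraries lay mainly in miR-N449. Among single libraries the sum ranged from 0.141% of the RPM total in the second normal testis library to 1.03% in the normal heart library.

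**Figure D4:**
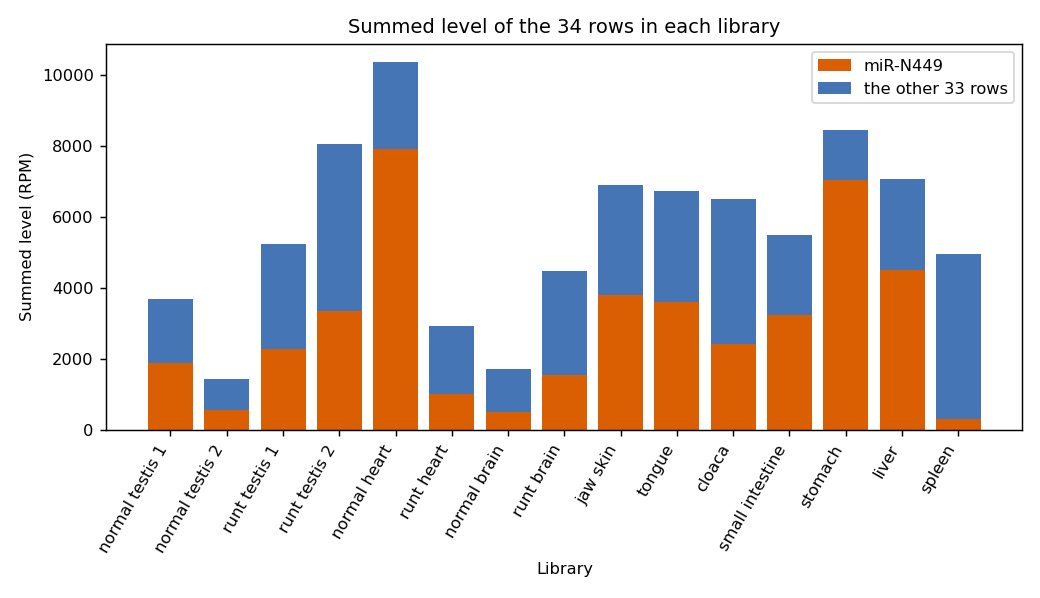
Summed level in RPM of the 34 rows in each of the 15 libraries, split into miR-N449 (orange) and the other 33 rows (blue). miR-N449 makes up most of the bar in stomach and normal heart and little of it in spleen, where the other rows reach 4638 RPM.

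Profiles over tissues were compared by Pearson's r of log2(RPM + 1) over the 10 tissue means, across 322 rows with a mean of at least 3 RPM, as a description. The points share libraries and depth. The row most like miR-N449 was miR-N360 (r = 0.91), the one most like miR-N14 was miR-N525 (r = 0.90), and the one most like miR-N12 was miR-N277 (r = 0.76). miR-N402 and miR-N569 were alike (r = 0.85), and the row most like miR-N569 in turn was miR-106-5p, of the miR-17 family known for its role in cell proliferation in mammals (r = 0.89). miR-N517 was most like miR-155-5p (r = 0.85), a miRNA of activated lymphocytes and macrophages in mammals. miR-N17 was most like miR-N59 (r = 0.96) and next most like miR-155-5p (r = 0.94). miR-N16 was most like miR-146a-5p (r = 0.85), which in mammals is induced in innate immune cells. Each r above is the highest or next highest of its row over all rows compared, so it is high in part by choice. Over all 561 pairs among the 34 rows the median r was 0.12, with a range of -0.83 to 0.85, and 4 pairs reached 0.8. These values are not on a par with the highest ones above.

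Some rows held fractions of a read, as when a read is divided among listed miRNAs that it fits equally well. At 40 estimated reads or fewer, where a fraction can be read, 28 of the 34 rows had at least 1 library, and 22 of these held whole reads throughout. The 6 rows with fractions were miR-N38 in 9 of 13 such libraries, miR-N35 in 8 of 11, miR-N34 in 8 of 12, miR-N73 in 5 of 15, miR-N24 in 2 of 6 and miR-N383 in 1 of 5. Levels of these 6 rows may therefore be shared with near-identical rows and are less certain. For the 6 rows with no library that low, among them miR-N449 and miR-N402, fractions could not be read.

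Rows near the thresholds show how sharp the choice was. The rows with the smallest minimum inside the limit of 3 RPM were miR-N73 and miR-N56, both at 3.06 RPM in the second normal testis library, and miR-N39 at 3.80 RPM in tongue. Just outside were miR-N85 at 2.69 RPM, miR-N558 at 2.23 RPM and miR-N298 at 2.03 RPM. By the ratio of the highest to the second highest tissue, miR-N401 (1.84), miR-N517 (1.81) and miR-N569 (1.76) lay just inside 2. Among rows not left out by name, only miR-N25 (2.40) and miR-N288 (3.52) reached 3 RPM in every library but not the ratio limit. Of the rows left out by name, miR-N444 (2.37) and miR-N20 (4.78) also did so. miR-N1, miR-N440, miR-N434 and miR-N523 lay inside both limits. Applied to scaled RPM, the same rule gave 32 rows, 31 of them shared.

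The thresholds of the rule did not use the study's comparison of runts with normal hatchlings, although they used the levels of the same libraries. Whether the rows left out by name were chosen by that comparison is not stated. Some of them lay inside both limits, so the counts of members passing may depend on leaving them out, which was not tested. The comparison was tested for each row with limma on log2(scaled RPM + 1). Over the 8 libraries of testis, heart and brain, none of the 33 members tested passed an adjusted p of 0.05 with limma (0 at an unadjusted p under 0.05), against 0 of all 293 rows tested (0% higher and 0% lower, 20 rows at an unadjusted p under 0.05). The median log2 difference, runt over normal, was 0.23 for the members and 0.01 for all rows. Without the normal or without the runt heart library, miR-N24 was called lower in runts by limma (log2 difference -2.82 in both, adjusted p = 0.0469 and 0.0461). It was the only member called, of 33 and 32 tested. Over all rows limma called 4 higher and 3 lower in both fits, of 281 and 286 tested. At an unadjusted p under 0.05 stood 4 members in each fit (12.1% and 12.5%), against 71 of all rows (25.3% and 24.8%). With tissue as a term, a lone heart library says nothing on runts, so both settings are in effect the same fit of testis and brain. Over all settings the adjusted p of miR-N24 ranged from 0.0461 to 0.998.

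In testis alone, 2 runt against 2 normal libraries, none of the 32 members tested passed the threshold with limma, and 9 of them (28.1%) stood at an unadjusted p under 0.05, 7 higher and 2 lower in runts. Of all 234 rows tested, 1 was called higher (0.427%) and 2 lower (0.855%), and 80 (34.2%) stood at an unadjusted p under 0.05, so the members' share was near that of all rows. Their median log2 difference was 0.70 against -0.19 for all rows, and 26 of 32 (81.2%) were above 0, against 41.9% of all rows. miR-N402 came closest, with a log2 difference of 1.18 ± 0.27 (SE, limma adjusted p = 0.0811). miR-N14 stood at 1.64 ± 0.39 (adjusted p = 0.0834), miR-N517 at 1.53 ± 0.40 (adjusted p = 0.0948) and miR-N56 at 1.29 ± 0.37 (adjusted p = 0.0970). On the lower side miR-N24 stood at -2.57 ± 0.72 (adjusted p = 0.0970) and miR-N17 at -1.89 ± 0.47 (adjusted p = 0.0947). For miR-N24 the deposited levels were 96.7 and 73.5 RPM in normal and 39.4 and 14.3 in runt testis, with no overlap. None of these 6 rows passed, and the fit leaves their differences uncertain over intervals such as 0.45 to 1.90 for miR-N402.

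**Figure D5:**
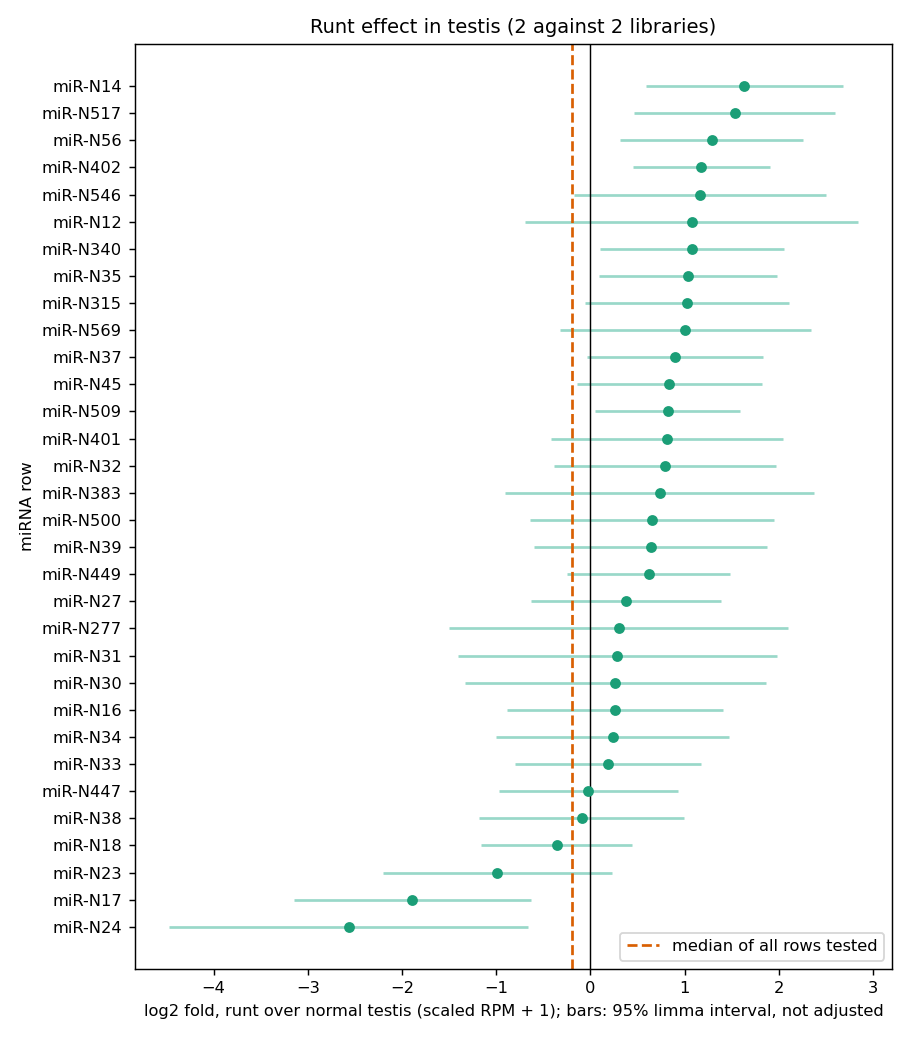
Log2 difference of runt over normal testis for the 32 rows tested, on log2(scaled RPM + 1), with unadjusted 95% limma intervals (2 against 2 libraries). Most points lie right of the dashed line, the median of all 234 rows tested at -0.19, and no row passed an adjusted p of 0.05.

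In deposited RPM the testis values were shifted further upward in runts, over all rows as well as over the members. The ratio of the runt to the normal mean had a median of 2.82 over the 34 rows, with 31 (91.2%) above 1, against a median of 1.62 and 70.3% above 1 over the 293 rows of the wider fit. Of the 32 members tested, 23 (71.9%) had both runt libraries above both normal ones, against 40.2% of the 234 rows tested, and 2 had both below, against 9.83%. These ratios depend on the scaling. With the scaling of the wider fit the median ratio was 1.68 over the 34 rows, 27 of them above 1, and 0.957 over the 293 rows. Left unscaled, the median log2 difference of all 234 rows was 0.59 and that of the members 1.48. Limma then called miR-N14 higher in runts (log2 difference 2.45, adjusted p = 0.0270), as 1 of 32 members. Of all 234 rows it called 24 higher and 0 lower at this setting. Over all settings tried, the adjusted p of miR-N14 ranged from 3.64e-05 to 0.387. The scaling factors of the testis libraries were 1.08 and 0.525 for normal and 1.14 and 1.54 for runt.

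The calls in testis changed with single libraries as well as with the scaling. Without the first runt library the median log2 difference was 0.73 for the members and -0.38 for all rows. The single runt library left is then assumed to vary like the normal ones. Without the second normal library, the one rich in miR-N444, the median log2 difference was 0.71 for the members and -0.22 for all rows. With all 4 libraries these medians were 0.70 and -0.19. Being medians of scaled values, they do not show whether single rows or deposited ratios depended on that library. Without it, the single normal library left is assumed to vary like the runt ones. In deposited RPM, without scaling, several marker lists also separated the size classes in testis. The smooth muscle and mesenchyme, gut epithelium and white blood cell lists overlapped between size classes. The 21 rows of broadly expressed families separated too, at 177572 and 112651 RPM in normal and 206327 and 222844 RPM in runt testis. The 10 brain and neuron rows summed to 2077 and 1094 RPM in normal and 3436 and 8822 RPM in runt testis, with 4 of 10 (2 rows each of miR-124 and miR-137) at 0 in both normal libraries and none at 0 in the runt ones. Endocrine rows, miR-375 and miR-7, summed to 7022 and 4377 RPM in normal and 15166 and 17995 RPM in runt testis. The 7 striated muscle rows summed to 210.3 and 87.9 RPM in normal and 3520.2 and 717 RPM in runt testis, with miR-499-3p at 0 in the second runt library. The 5 epithelium and skin rows summed to 686 and 402 RPM in normal and 3579.8 and 1735 RPM in runt testis, and the liver marker miR-122 stood at 43.3 and 66.8 RPM in normal and 286 and 3152 RPM in runt testis. The gonad marker miR-202 was lower in runts, at 435 and 339 RPM in normal and 127 and 110.1 RPM in runt testis, and so was the endothelial marker miR-126, at 2343 and 2065 RPM in normal and 1514 and 1523 RPM in runt testis. Their part in the members' values was not tested.

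In brain and heart there was 1 library per size class and no test. In deposited RPM the runt brain library was higher than the normal one for 29 of 34 rows, with a median ratio of 2.05, and the runt heart library was higher for 10 of 34, with a median ratio of 0.723. Over 293 rows the median ratio was 1.54 in brain, with 56.7% of rows above 1, and 1.08 in heart, with 45.4% above 1. The difference in brain depended on the scaling: with the factors of the 8-library fit, 1.55 for runt and 0.772 for normal brain, the members' median ratio was 1.023 and 17 of 34 were above 1. In heart the scaled median ratio was 0.83 and 12 of 34 were above 1. Over the 293 rows the scaled median ratios were 0.766 in brain and 1.24 in heart. Whether the runt effect of testis differed from the average effect of brain and heart was tested with limma. In this fit heart and brain had no residual spread of their own. The spread behind its SEs and p-values thus came from the testis libraries, and heart and brain are assumed to vary like them. None of 33 members passed, with 8 (24.2%) at an unadjusted p under 0.05, against 53 of all 293 rows (18.1%). Of all 293 rows, 1 was called higher (0.341%) and 2 lower (0.683%) in testis. The members nearest to the threshold were miR-N402, with a log2 difference of 1.78 ± 0.30 (SE, limma adjusted p = 0.137), and miR-N517, with 3.08 ± 0.53 (adjusted p = 0.137). Without the runt brain library, when heart alone stood for the other tissues, limma called miR-N517, miR-N509 and miR-N449 higher in testis (3 of 33), with 5 rows higher and 19 lower among 269 tested. Without the normal brain library it called miR-N517 and miR-N509, with 4 rows higher and 12 lower among 279 tested. With the rows limited to those at 3 RPM in every library, limma called miR-N56 (log2 difference 2.04, adjusted p = 0.0465, with a range of 0.0465 to 0.519 over all settings). It was 1 of 34 members tested there, with 3 rows higher and 4 lower among 154 tested. This filter is also 1 of the thresholds that chose the members. At the main setting miR-N73 entered none of the 3 tests, and miR-N53 did not enter the testis test. Neither reached 10 RPM in 2 libraries of those fits.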

How the data were processed

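Small RNA was sequenced from crocodile tissues, and 60 deposited samples carry 15 library names, 4 samples to a name. The deposited table holds 1 value column per name, so samples of a name could not be compared, and 1 other value column, which no sample title matched, was left out. The authors' values are RPM, as read from the values themselves, and the quantifier of miRDeep2 is named on the first line, per the file headers. Tools listed without a role are bcl2fastq 2, bedtools 2.26.0 and Bowtie 1.2.0, per the submitters' processing notes. The genome build and the total that reads were divided by are not given in the sources used here. Per library, the listed rows held 55.3% to 81.5% of total RPM. One read was taken as the smallest step among low values, and 89.5% to 94.9% of low values (up to 40 reads) were whole multiples of it within 0.1 reads. Since the others were fractions, no count test was run. Among 654 rows, 1 name, miR-551-5p, stood on 2 lines with different values, and the first line was used. It is no member.

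Tissue means are means over libraries (testis 4, heart 2, brain 2). Runts were compared with normal hatchlings with limma 3.58.1 in R 4.3.3 on log2(scaled RPM + 1), with moderated variance and an intensity trend, two-sided, and p-values adjusted by Benjamini-Hochberg over all rows tested, at a threshold of 0.05. Library scaling was a trimmed mean of log ratios, trimming 30% of log ratios and 5% of levels. A row was tested where 2 or more libraries of a fit reached 10 RPM. The fit over testis, heart and brain had tissue as a term. The test of the difference gave each tissue its own runt effect, so only testis libraries gave residual spread there. Fold changes on this scale understate changes of low rows. The fits were tested on simulated data with independent noise per row and no shifts of whole libraries. Shifts like those among the testis libraries were thus not covered.

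Every member is named. Values by library are given for the 8 most abundant rows, for the 3 with the smallest and the 3 with the largest CV, and for rows past a test's threshold. For the 8 most abundant the row most alike is named, and of family-named rows that pass the same thresholds the 8 most abundant. Other rows are named by their leading tissue or by a sensitivity result. The members and lists were chosen with earlier results of these data known.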

Additional observations from a re-analysis of the deposited data

Results flagged for a closer look

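In the deposited RPM of the 4 testis libraries, miR-N31 stood apart in 1 library. That library, the second runt one, had the highest scaling factor of the testis fit, 1.54. The check below was made without scaling, so it does not show whether the gap remains on scaled RPM. It was at 48.06 RPM in the second runt testis library and between 10.19 and 12.63 RPM in the other 3, a gap of 0.936 of the whole range, above Dixon's 95% critical value for 4 samples. It was the only one of 35 sets of 4 libraries checked that passed this limit (the 34 rows and their sum), and chance passes about 1 in 20. In the same library the liver marker miR-122 stood at 3152 RPM, against 43.3 to 286 RPM in the other testis libraries. The part of other tissue in the level of miR-N31 was not tested.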

How the results depend on the processing

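At the main setting limma called no member in any test, so whether a called member keeps its direction was not tested. The uncalled members followed one by one kept the sign of their log2 difference at every setting. Over 8 libraries miR-N24 stood at -1.62 at the main setting and at -1.03 without scaling. For the other rows only counts of calls were compared, and their directions were not checked. No paired analysis was possible because the value columns carry no replicate numbers that pair runt and normal libraries.

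Without scaling, limma called 1 row higher over 8 libraries, 24 higher and 0 lower in testis, with 1 member higher, and 0 higher and 0 lower in the test of the difference. Without the intensity trend it called 0 lower in testis, and 0 higher and 0 lower in the difference. With no filter the difference gave 5 higher and 9 lower, and with 3 RPM required in every library 3 higher, 4 lower and 1 member higher. Leaving out 1 library at a time gave ranges over the fits. Over 8 libraries these were 0 to 4 rows higher, 0 to 3 lower and 0 to 1 members lower. In testis they were 1 to 20 higher, 0 to 48 lower, 0 to 3 members higher and 0 to 2 members lower. In the difference they were 0 to 5 higher, 0 to 19 lower and 0 to 3 members higher. Members counted 60 at a minimum of 1 RPM and 17 at 10 RPM.

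With scaled RPM the summed level was 5839 RPM in jaw skin, 6290.1 in spleen, 5119 in cloaca, 6212 in small intestine, 5141 in tongue and 9969 in stomach. In deposited RPM without miR-N449 it was 3109 RPM in jaw skin, 4638 in spleen, 4068 in cloaca, 2253 in small intestine, 3133 in tongue, 2560.0 in liver and 1431 in stomach. With scaling added after seeing the data, the members' median runt over normal ratio was 1.68 in testis, 0.83 in heart and 1.023 in brain. The most rows led by 1 tissue were 14 with scaled RPM, and 6 to 10 over the fits that left out 1 library.

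Depth limits the lowest rows, since 42 of 510 values rest on under 10 reads, and tissues with 1 library have counting error only. The runt fits rest on 2 libraries per size class in testis and 1 in heart and in brain.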
